A study of Mus musculus with 7 samples.

Results

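The genes described here encode the proteins of the cytosolic ribosome (RP genes). They were chosen by name: a row of the deposited tables, which is the region around 1 transcriptional start site (TSS), was taken where its gene symbol was Rpsa or was Rps, Rpl or Rplp followed by a number and at most a short suffix, with the Rps6k kinases left out. This gave 98 of the 36733 rows and 79 of the 17689 named genes, 30 for the small (40S) and 49 for the large (60S) subunit, and 16 of the genes had several rows. The cytosolic ribosome translates the mRNA of the cytosol, and most of its proteins are made in near equal amounts. Their genes are among the most strongly transcribed of any dividing cell. RP mRNAs are known to begin with a terminal oligopyrimidine (TOP) tract, an unbroken run of C and T at the very 5′ end, through which growth signals control their translation. Tip60-p400 is a complex that holds Tip60, an acetyltransferase of histones H2A and H4, and p400, an ATP-dependent remodeler that exchanges histone H2A variants. It binds near the start sites of many genes, and in embryonic stem cells the study reports that it also silences differentiation genes. Hdac6 is a deacetylase best known for its cytoplasmic substrates, such as tubulin.

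The data were ChIP-seq libraries of mouse embryonic stem cells (ESCs) of the E14 line, 7 in all and 1 for each condition, made to ask where Tip60 and Hdac6 bind and whether binding of each depends on the other. Flag ChIP was done in Tip60-H3F ESCs after GFP KD, the control knockdown, and after Hdac6 KD, in Hdac6-H3F ESCs after GFP KD and after Tip60 KD, and in untagged wild-type ESCs, where the Flag antibody measures background. ChIP with an antibody to endogenous p400 was done in ESCs after GFP KD and Hdac6 KD. H3F is a histidine and Flag tag placed by gene targeting at the end of the cell's own Tip60 or Hdac6 gene (for Tip60, of a single copy), and knockdown cells were taken 72 hr after lentiviral infection. The library titled as Tip60 KD with Hdac6 ChIP carries a genotype label that names Hdac6 KD instead; the title was followed. ChIP tables hold no RNA or protein level, so neither the knockdowns nor the cell type could be checked from them. Since no condition has a replicate, every difference below compares 2 libraries, and the intervals and tests cover only the sampling of reads, PCR duplicates included.

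Signal is given in ppm, the number of reads that cover a base for each 1000000 normalizing reads, averaged from −500 to 500 bp around the TSS (the promoter). The libraries were normalized to between 9226710 and 31375600 reads. Each read covered 299 bp in the Tip60, untagged and p400 libraries but 148 to 149 bp in the Hdac6 libraries, so a given ppm there stands for more reads. These spans were measured on isolated reads in the files. The study's methods give a single extension length for all libraries, close to that of the Hdac6 reads, and the difference was not resolved here. At the promoter of an RP row there were, in the median, 43 reads in the p400 library after GFP KD, 32 in that for Tip60, 16 in that for Hdac6 and 17 in the untagged one. Levels of different antibodies are not on 1 scale.

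On the mm9 genome, 89 of the 98 rows lay within 300 bp of an annotated transcript start of their own gene, 63 of them within 20 bp. Another 6 rows lay farther away. The second rows of Rpl19, Rps4x, Rps18 and Rpsa and the only row of Rpl18 lay 492 to 954 bp past the nearest annotated start. The first row of Rpl3l lay 349 bp before a start. Both Rpl3l rows were inside the gene, 4507 and 4856 bp past its first annotated start. The second Rps18 row was 2007 bp past the first start of its gene. The Rpl29 rows on chromosomes 1 and 5 lay at the annotated pseudogenes Gm8210 and Gm13841. Rpl41 had no transcript of that symbol in the annotation used. Where a value is given for a gene, it is that of its row with the highest promoter signal summed over all libraries.

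Of the 79 genes, 50 (63.3%) had a run of 8 or more pyrimidines that reached within 5 bases of the TSS, against 8.99% of all 17689 genes and 6.49% of the 77 rows of mitochondrial RP genes, whose products form a separate ribosome. The bases around the TSS are shown for genes that the results turn on, from mm9, on the gene's own strand, 40 bases before the TSS and 20 from it on. Capitals mark a pyrimidine run of at least 6 bases near the start, and a sequence without capitals has none. Rps19 had the highest p400 and Tip60 signal, and Rpl10a was second to it in p400. Rps3a had the largest positive difference in the Tip60 comparison. Rps9 and Rpl27a were shown by the study itself, as highly expressed genes with Tip60 binding relatively unaffected upon Hdac6 KD.
Rps19, chr7:25669614-25669673, plus strand: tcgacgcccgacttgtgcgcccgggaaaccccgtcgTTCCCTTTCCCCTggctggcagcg
Rps9, chr7:3655603-3655662, plus strand: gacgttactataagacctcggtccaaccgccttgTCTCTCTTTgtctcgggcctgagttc
Rpl27a, chr7:116662669-116662728, plus strand: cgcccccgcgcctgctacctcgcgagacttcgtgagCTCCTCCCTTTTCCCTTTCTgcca
Rps3a, chr3:85946496-85946555, minus strand: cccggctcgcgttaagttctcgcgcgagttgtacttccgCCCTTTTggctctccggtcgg
Rpl10a, chr17:28465504-28465563, plus strand: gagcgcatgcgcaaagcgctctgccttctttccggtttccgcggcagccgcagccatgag

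Other short sequences were counted on both strands from 250 bases before to 50 after the TSS. CCGGAAG, the core that ETS-family factors bind, was present in 31 of the 79 genes (39.2%) and in 12.3% of all genes. AAGATGG, the core of YY1 sites, was present in 17 (21.5%) and in 6.99%; its letters also occur where a start codon falls in the window. GGGCGG, the GC box, was found in 45 (57.0%) against 49.2%, CCAAT in 24 (30.4%) against 37.2%, CACGTG in 8 (10.1%) against 8.12%, and TATAAA in 10 (12.7%) against 12.5%. The NRF1 core was found in 3 genes (3.80%) against 1.27%. The pyrimidine runs, the ETS core, the YY1 core and, on 3 genes, the NRF1 core thus had larger shares than in all genes, and in mitochondrial RP rows the ETS core (40.3%) and the YY1 core (18.2%) were frequent as well.

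Both subunits of the complex had high signal at RP promoters in control ESCs. Mean p400 after GFP KD was 0.516 ppm over the 98 rows and 0.254 ppm over all 22704 rows with p400 values, a ratio of 2.03 (95% counting interval 1.97 to 2.09). Mean Tip60 was 0.454 ppm against 0.180 ppm over all 36733 rows, a ratio of 2.52. For Hdac6 the means were 0.206 and 0.140 ppm, a ratio of 1.46. The untagged library, which has no tagged protein, also had more signal at RP promoters, 0.216 against 0.154 ppm, a ratio of 1.40. The Hdac6 excess at RP promoters was thus of about the size of the Flag background excess, and that of Tip60 was larger. For p400, precipitated with a different antibody, there is no matched background library. The tenth of rows with the highest signal, by definition 10% of all rows, held 76 of the 98 RP rows for Tip60, 72 for p400 and 23 for Hdac6.

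**Figure D1:**
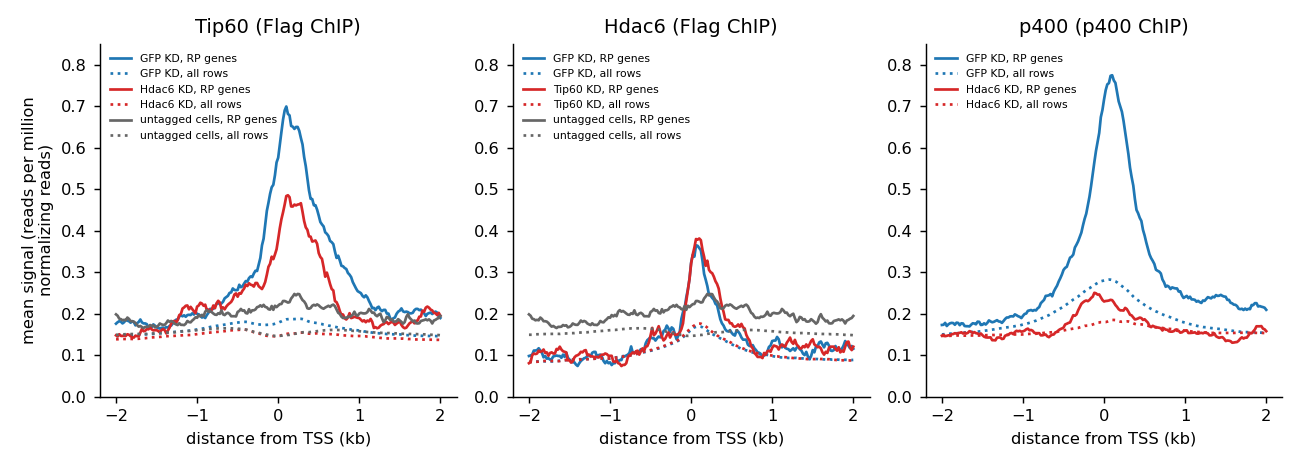
Mean signal in ppm from 2 kb before to 2 kb after the TSS, over the 79 RP genes with 1 row each (solid) and over all rows (dotted), in 1 panel for each ChIP; the untagged library is drawn in the Flag panels. After smoothing over 100 bp, control p400 and Tip60 rise to maxima of 0.764 and 0.683 ppm about 100 bp past the TSS of RP genes, p400 after Hdac6 KD stays at or below 0.247 ppm, and the Hdac6 curves after GFP KD and Tip60 KD peak at 80 bp with 0.356 and 0.375 ppm.

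The signal was centred just inside the genes. Averaged over the 79 genes and smoothed over 100 bp, p400 after GFP KD was highest 100 bp downstream of the TSS at 0.764 ppm, Tip60 at 100 bp with 0.683 ppm and Hdac6 at 80 bp with 0.356 ppm. From 1500 to 2000 bp on either side the same libraries had 0.197, 0.190 and 0.110 ppm. Tip60 was lopsided: from −100 to 300 bp the 98 rows held 0.581 ppm against 0.223 ppm in untagged ESCs, a ratio of 2.61, but from −600 to −200 bp 0.286 against 0.208 ppm, a ratio of 1.37. Over all rows the same ratios were 1.22 and 1.11.

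The small and large subunit genes were alike in level. Mean p400 after GFP KD was 0.538 ppm over the 37 small-subunit rows and 0.502 ppm over the 61 large-subunit rows, mean Tip60 was 0.469 and 0.445 ppm, and mean Hdac6 was 0.209 and 0.204 ppm. The stalk genes Rplp0, Rplp1 and Rplp2, whose products recruit translation factors to the 60S subunit, had 0.476 ppm of p400 and 0.450 ppm of Tip60. Across the 79 genes p400 and Tip60 after GFP KD had Spearman's rho 0.55, p400 and Hdac6 0.47, and Tip60 and Hdac6 0.12; these are across genes, which are not independent replicates, and each library alone had rho of 0.19 to 0.29 with the untagged one.

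Rps19 had the most p400 of all RP genes. Its product is a 40S protein mutated in a congenital failure of red cell production. Its TSS at position 25669654 of chromosome 7 had 1.03 ppm of p400 (89 reads), above 99.9% of rows. Tip60 at the same promoter was 1.07 ppm (78 reads), Hdac6 was 0.318 ppm (25 reads) and the untagged library had 0.184 ppm (15 reads). It was thus high in all 3 control ChIPs and not in the background library. Rpl10a, Rps27l, Rpl35a and Rpl12 came next for p400, with 0.940, 0.928, 0.893 and 0.807 ppm. Their Tip60 was 0.744, 0.771, 0.639 and 0.795 ppm, while untagged signal was 0.183, 0.165, 0.381 and 0.222 ppm in the same order. Rpl35a therefore combined high p400 with the highest background of these genes, and another gene, Iqcg, has a row within 1000 bp of its TSS. Rpl23a, singled out after its values were seen, had the second highest Tip60 of all RP genes, 0.865 ppm against 0.196 ppm in untagged ESCs, with p400 of only 0.425 ppm. At the low end were Rpl18 with 0.184 ppm of p400, Rpl39l with 0.214 ppm and Rps4x with 0.216 ppm. The only row of Rpl18 lay over 300 bp from an annotated start. Rps4x is on the X chromosome, where all rows had a mean of 0.117 ppm of p400 against 0.260 ppm on autosomes.

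**Figure D2:**
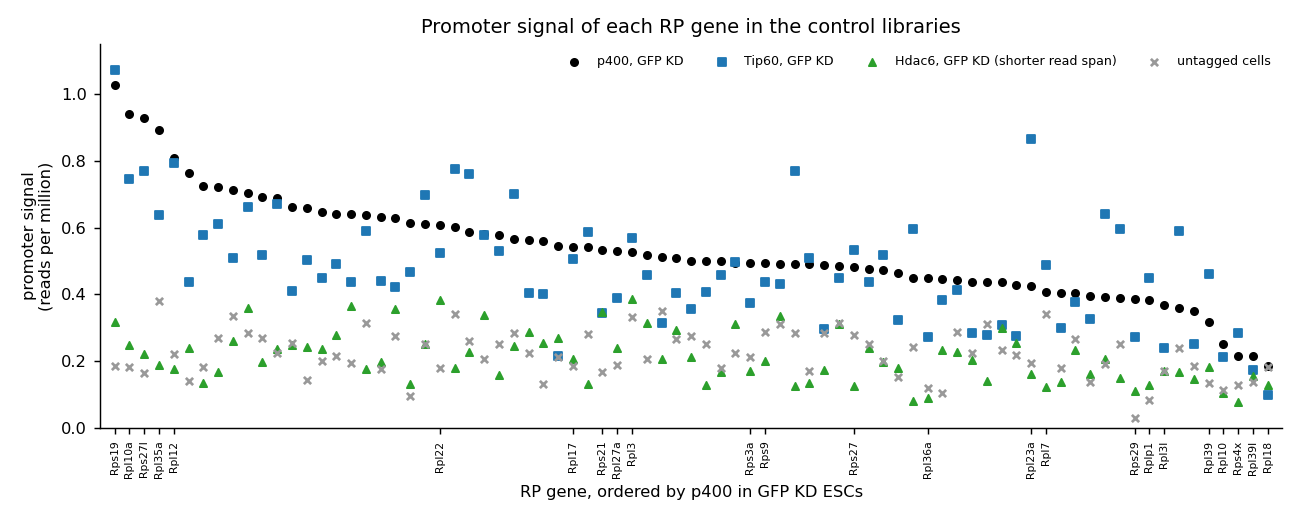
Promoter signal in ppm (vertical axis) of each of the 79 RP genes, ordered by p400 after GFP KD, for p400, Tip60 and Hdac6 after GFP KD and for untagged ESCs, 1 point for each gene and library, with the names of some of the genes described. p400 runs from 1.03 ppm at Rps19 to 0.184 ppm at Rpl18, whose only row lies away from an annotated start. Tip60 follows p400 loosely (rho 0.55), and untagged signal less so (0.21). Hdac6 reads cover a shorter span.

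Tip60 signal at RP promoters stood above the untagged background. Pooled over the 98 rows, the Tip60 library had 2.10 times the signal of the untagged library (95% counting interval 1.98 to 2.23), against 1.17 times over all rows. Tip60 was the higher of the 2 in 94 rows and the lower in 4. By the exact conditional binomial test on reads, adjusted over 36083 rows by Benjamini-Hochberg, 25 RP rows of 23 genes were called above untagged at an adjusted p below 0.05, that is 25.5% of RP rows against 1.16% of all rows, and no RP row was called below it (0.0665% of all rows). By size alone, 70 RP rows had at least 1.5 times the untagged signal, 71.4% against 29.8% of all rows. The ratio was highest at Rps29, 9.14 (95% interval 2.63 to 95.7; exact test adjusted p = 0.00936), which rested on 20 reads against 2. Rps19 followed with 5.83 (3.22 to 10.6) and Rplp1 with 5.35 (2.22 to 13.7; exact test adjusted p = 0.00329). Rpl10a and Rps27l, both high in p400, had ratios of 4.07 and 4.67 and were called as well, but Rps9 at 1.52 and Rpl27a at 2.06 were not (exact test adjusted p = 0.749 and 0.42).

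For Hdac6 the RP genes did not stand out from the other rows. Per read, the Hdac6 library had 1.92 times the untagged density at RP promoters (95% counting interval 1.79 to 2.05) and 1.84 times over all rows. The exact test called 27 RP rows of 22 genes above untagged, 27.6% against 20.6% of all rows, and none below it (0.324% of all rows). A ratio of at least 1.5 was found in 67 RP rows, 68.4% against 57.1% of all rows. The highest ratios among genes with at least 20 reads outside Rps29, which again rested on 2 untagged reads (7.58, 95% interval 1.86 to 85.5), were those of Rpl6 at 4.48 (1.86 to 11.9), Rpl22 at 4.33 (2.20 to 8.74) and Rps21 at 4.18 (2.16 to 9.05). All 4 were called. Rps21 and Rpl22 had Hdac6 signal of 0.347 and 0.382 ppm with 0.167 and 0.178 ppm in untagged ESCs. Their Tip60 was 0.343 and 0.525 ppm, and that of Rpl22 was called above untagged (ratio 2.95; exact test adjusted p = 0.0385).

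Upon Hdac6 KD, p400 was lower at every RP gene. Mean p400 over the 98 rows was 0.516 ppm after GFP KD and 0.208 ppm after Hdac6 KD, a change of −59.6% (95% counting interval −61.7% to −57.5%), while over all rows it went from 0.254 to 0.175 ppm, a change of −31.2%. After Hdac6 KD the RP promoters thus kept 1.19 times the mean of all rows, where they had 2.03 times before. All 79 genes had less signal after Hdac6 KD, with changes from −81.1% to −2.36% and a median of −61.3%; of the 98 rows, 96 were lower, and the exceptions were the first Rpl3l row and the second Rpl19 row, both off an annotated start (26.3% and 5.83%). The exact test on reads called 70 RP rows of 61 genes lower, 71.4% of RP rows against 11.9% of the 22474 rows tested, and called no RP row higher (0.245% of all rows). By size alone, 90 RP rows were lower by a factor of at least 1.5, 91.8% against 44.7% of all rows, and 0 were higher by it, against 8.55% of all rows. Rows chosen only for p400 signal gave similar values: the tenth of all rows with the most p400 after GFP KD, picked on one of the libraries compared and so bound to be high in it, had a pooled change of −56.7% and 68.6% of rows called lower.

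Single genes show the range. At Rps19 p400 went from 1.03 to 0.296 ppm, a fall of 71.2% that was called (95% interval of the change −81.3% to −56.1%; exact test adjusted p = 1.27e-07). Rpl17 had the largest fall, from 0.543 to 0.102 ppm or from 47 to 11 reads, a change of −81.1% (−91.2% to −63.1%). Rpl10a fell from 0.940 to 0.185 ppm, which took the gene from near the top of the list to below the mean RP level. Rpl36a and Rpl39, both on the X chromosome, fell from 0.449 to 0.0910 ppm and from 0.318 to 0.0675 ppm. The study's own examples fell too: Rps9 from 0.493 to 0.226 ppm (−54.1%, −73.9% to −24.1%; exact test adjusted p = 0.0242) and Rpl27a from 0.529 to 0.269 ppm (−49.2%, −69.2% to −17.3%; exact test adjusted p = 0.0458). The genes Rpl18, Rpl3l, Rpl10 and Rpl39l had the smallest changes, −2.36%, −13.7%, −19.8% and −28.4%, and none of them was called. They started at 0.184, 0.369, 0.250 and 0.214 ppm, and Rpl3l ended with 0.318 ppm, well above the mean RP level after Hdac6 KD. Of these rows, that of Rpl18 lay over 300 bp from an annotated start. That of Rpl3l lay at an internal start, 4856 bp past the first, and Rpl10 is on the X chromosome.

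**Figure D3:**
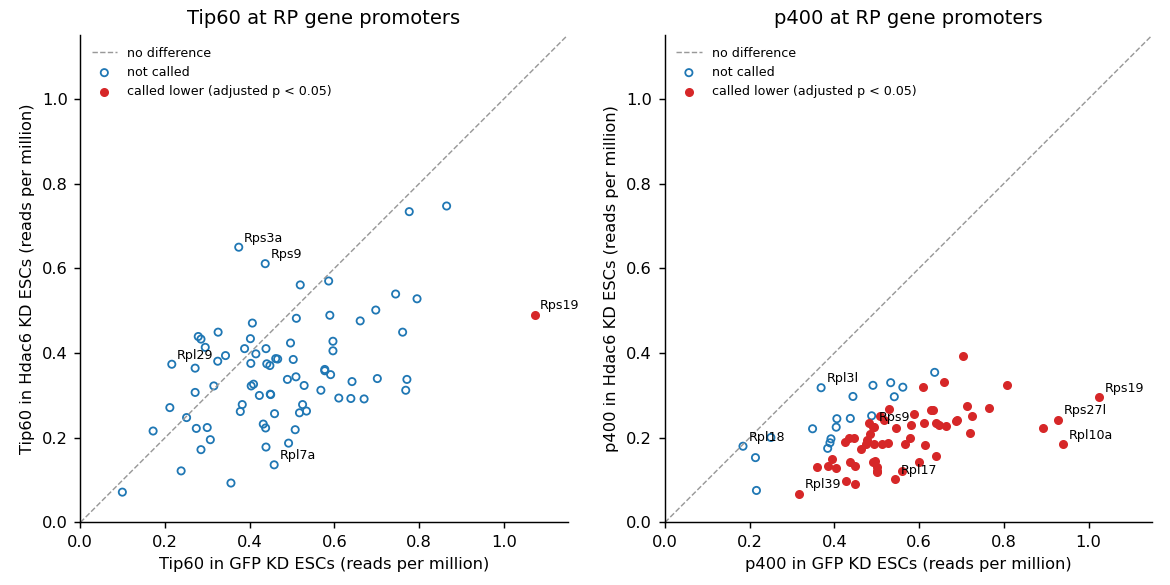
Promoter signal of each RP gene in ppm after GFP KD (horizontal axis) and after Hdac6 KD (vertical axis), for Tip60 on the left and p400 on the right, 1 point for each of the 79 genes; filled points were called lower by the exact test and the dashed line marks equal signal. All 79 points lie below the line for p400, 61 of 79 for Tip60, and Rps19 is the only gene called in the Tip60 panel.

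Tip60 at RP promoters was lower upon Hdac6 KD as a group, but unevenly across genes. Mean Tip60 was 0.454 ppm after GFP KD and 0.339 ppm after Hdac6 KD, a change of −25.4% (95% counting interval −29.4% to −21.2%), beside −15.2% over all rows. It was lower in 61 genes and higher in 18, with a median change of −27.8%. From −100 to 300 bp the change was −31.0% (−36.5% to −25.8%), beside −18.0% over all rows, and from −600 to −200 bp it was −10.8%, as over all rows (−10.8%). With the untagged signal subtracted from both libraries, the change at the promoter of RP rows was −48.4% and that from −600 to −200 bp −39.6%. The mean of all rows went from 0.180 to 0.153 ppm, which is the level of untagged ESCs (0.154 ppm). RP rows stayed above their untagged mean after Hdac6 KD (0.339 against 0.216 ppm). Since the all-row mean lay so near background, the percentages do not rank RP rows and all rows by loss above background. The exact test called 2 RP rows lower, 2.04% against 0.358% of 36050 rows tested, and both were rows of Rps19, 79 bp apart, which share most of their reads; it called none higher (0.0472% of all rows). A factor of at least 1.5 was passed downward in 38 RP rows, 38.8% against 35.4% of all rows, and upward in 6 (6.12% against 15.8%). At Rps19 Tip60 went from 1.07 to 0.490 ppm, a change of −54.3% (−70.7% to −30.2%; exact test adjusted p = 0.0451). No RP row was called at an adjusted p below 0.01 or in the window from −250 to 250 bp.

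Base composition moved with the Tip60 difference. The 2 Tip60 libraries differed also in windows 1500 to 2000 bp from the TSS of a row that had no other TSS within 1000 bp, and by an amount that followed GC content: signal after Hdac6 KD was 1.26 times that after GFP KD in windows of 25% to 27.5% GC and 0.701 times in windows of 62.5% to 65% GC. RP promoters had a mean GC content of 56.8% and all rows 53.1%. When each row was divided by the ratio found in such windows of its own GC content, the change of Tip60 at RP rows became −9.28% and that over all rows −0.0497%. From −100 to 300 bp it became −7.90%, where 37 of the 98 RP rows were richer in GC than any of the windows used and were given the ratio of the richest ones, and from −600 to −200 bp it became 2.39%. The 2 p400 libraries also differed with GC content. Their ratio was 0.640 at 25% to 27.5% GC, 1.11 at 55% to 57.5% and 0.760 at 62.5% to 65%. For p400 the same step left −60.1% at RP rows, where the mean ratio was 1.03, and −28.4% over all rows. Single genes moved in both directions, such as Rpl7a from −53.4% to −38.8% and Rpl37a from −73.9% to −76.4%. For Rps19 the step gave −34.8% for Tip60 and −62.1% for p400.

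Among the genes with the largest differences in Tip60, Rpl7a, Rpl37 and Rpl27 had changes of −70.3%, −61.9% and −59.4%. Rpl7a went from 0.458 to 0.136 ppm. At the other end Rps3a went from 0.374 to 0.650 ppm, from 27 to 42 reads, a change of 73.7% (4.34% to 192%). Rpl29, Rps26 and Rpl22l1 had changes of 72.9%, 57.6% and 51.9%. None of these 7 genes passed the adjusted test, in either direction (exact test adjusted p from 0.100 to 0.732). At Rps3a, Rpl29, Rps26 and Rpl22l1 p400 was lower, as in all 79 genes, with changes of −62.4%, −59.2%, −67.2% and −43.9%. At the first 3 of them the fall in p400 was called (exact test adjusted p = 0.00641, 0.00855 and 0.00388).

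Rps9 and Rpl27a, the study's examples of relatively unaffected Tip60 binding, were among the 18 genes with more Tip60 after Hdac6 KD. Tip60 at Rps9 was 0.436 ppm after GFP KD and 0.611 ppm after Hdac6 KD, a change of 39.9% with an interval from −14.7% to 129%. At Rpl27a it was 0.388 and 0.410 ppm, a change of 5.80% (−39.1% to 89.1%). Both intervals include no change, and both genes had p400 falls that were called (above). Rps9 was also a target of ChIP-qPCR, and its primers are shown here to place that measurement on the profiles. Matched to mm9, their product of 224 bp lies on chromosome 7 from 3655820 to 3656043, 177 to 400 bp downstream of the TSS.
Rps9 forward primer: tctaaggcggatttctctgagag
Rps9 reverse primer: ctttagctcctggtcgagacg
Over that stretch the libraries held 0.633 ppm of Tip60 after GFP KD and 0.944 ppm after Hdac6 KD, with 0.245 ppm in untagged ESCs. p400 over the same stretch was 0.721 and 0.215 ppm. Hdac6 was 0.295 ppm after GFP KD and 0.135 ppm after Tip60 KD. The stretch is shorter than the promoter window and so holds fewer reads. No read counts or intervals were computed for it, and these differences were not tested.

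Tip60 KD made little difference to Hdac6 at RP promoters. Mean Hdac6 was 0.206 ppm after GFP KD and 0.218 ppm after Tip60 KD, a change of 5.81% (95% counting interval −1.62% to 13.9%), beside 2.39% over all rows, so falls of more than 1.62% lie outside the counting interval. It was lower in 34 genes and higher in 45. The exact test called 0 RP rows in either direction, beside 0% of all 35850 rows called lower and 0.00279% called higher. By a factor of at least 1.5, 15 RP rows were lower (15.3% against 20.7% of all rows) and 16 higher (16.3% against 20.2%). With a median of 16 and 13 reads for each row, changes of a single gene were hardly resolved: the largest were −66.9% at Rpl39l, which had 12 and 3 reads, and 129% at Rpl15 with 12 and 21 reads (3.26% to 390%). Among genes with at least 20 reads in both libraries together, Rps24 and Rps25 had the most negative changes, −49.4% (−80.0% to 26.5%) and −44.0% (−80.9% to 41.1%), and Rpl15 the most positive. The label conflict of this library, given above, bears on all of these values.

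Paralogs of RP genes were compared with their parents, since several have restricted expression. Rpl3l, the form of Rpl3 known from striated muscle, had 0.369 ppm of p400 after GFP KD against 0.528 ppm at Rpl3, and 0.238 against 0.568 ppm of Tip60. The Rpl3l row used lay at an internal transcript start, 4856 bp past the first annotated start of the gene, so its values are not those of the first start. Rpl39l, known from the testis, had 0.214 ppm of p400 and 0.172 ppm of Tip60, against 0.318 and 0.461 ppm at Rpl39. Their Tip60 was 1.40 and 1.24 times the untagged signal, and neither was called above it. Rps27l, a homolog of Rps27 described as a p53 target, ran the other way: p400 was 0.928 ppm against 0.483 ppm at Rps27, and Tip60 0.771 against 0.534 ppm. Rpl22l1 and Rpl7l1 had 0.438 and 0.488 ppm of p400, beside 0.609 ppm at Rpl22 and 0.406 ppm at Rpl7. Upon Hdac6 KD p400 fell with a call at Rps27l (−73.9%; exact test adjusted p = 1.27e-07), Rps27 (−51.4%), Rpl3 (−64.6%), Rpl39 (−78.7%) and Rpl22 (−47.3%), whereas Rpl3l, Rpl39l, Rpl22l1, Rpl7l1 and Rpl7 were not called, with changes of −13.7%, −28.4%, −43.9%, −48.4% and −39.6%. The starts of the Rps27 and Rpl39 pairs are shown because the parents carry pyrimidine runs of 9 and 14 bases, in capitals, whereas Rpl39l has 7 and Rps27l no run of at least 6.
Rps27, chr3:90017550-90017609, minus strand: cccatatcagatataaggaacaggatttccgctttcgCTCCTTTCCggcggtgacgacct
Rps27l, chr9:66793885-66793944, plus strand: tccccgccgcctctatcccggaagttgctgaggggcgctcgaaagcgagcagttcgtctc
Rpl39, chrX:34625160-34625219, minus strand: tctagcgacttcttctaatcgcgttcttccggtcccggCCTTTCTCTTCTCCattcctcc
Rpl39l, chr16:10170281-10170340, plus strand: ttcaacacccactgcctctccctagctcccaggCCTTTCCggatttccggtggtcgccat

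Rpl29, a 60S protein gene, has rows at 3 places in the genome, and its p400 signal was highest at the gene itself. The row on chromosome 9 had 0.545 ppm of p400 after GFP KD, and those at the pseudogenes on chromosomes 1 and 5 had 0.0635 and 0.101 ppm. Tip60 was 0.216 ppm at the gene and 0.0726 and 0.0147 ppm at the pseudogene rows, with untagged signal of 0.212, 0.0601 and 0.192 ppm. Tip60 at the gene was thus at the level of the untagged library. The 3 starts are shown, with 25 bases from the TSS on, because all of them keep a pyrimidine run.
Rpl29 gene, chr9:106331830-106331894, plus strand: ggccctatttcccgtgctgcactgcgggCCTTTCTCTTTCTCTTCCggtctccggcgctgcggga
Rpl29 row at Gm8210, chr1:43245924-43245988, plus strand: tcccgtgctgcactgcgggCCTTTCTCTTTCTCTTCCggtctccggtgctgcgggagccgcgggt
Rpl29 row at Gm13841, chr5:116252181-116252245, minus strand: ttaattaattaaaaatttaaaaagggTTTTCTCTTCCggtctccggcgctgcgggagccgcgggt
The authors placed a read with several matches at 1 of them at random, and RP genes have many processed copies. Of the 50-base words from −500 to 500 bp, 5.03% at RP rows recurred elsewhere in mm9, against 1.30% at mitochondrial RP rows, 1.51% at proteasome rows and 0.963% at rows of initiation and elongation factors. At the Rpl29 row at Gm8210 49.5% recurred, so random placement limits how far reads can be assigned between copies. In the 42 RP rows with no recurring word the median change upon Hdac6 KD was −56.7% for p400 and −27.9% for Tip60.

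Rows away from the start of the gene had less signal on average. The second row of Rpl19, 866 bp past the nearest annotated start, had 0.107 ppm of p400 after GFP KD against 0.484 ppm at the first row. The second row of Rps4x, 954 bp past a start, had 0.240 ppm against 0.216 ppm. The 6 rows over 300 bp from an annotated start had a mean of 0.258 ppm of p400 and 0.245 ppm of Tip60, and the 89 rows at a start 0.545 and 0.476 ppm. On the X chromosome, 6 rows of Rpl10, Rps4x, Rpl36a and Rpl39 had a mean of 0.289 ppm of p400 and 0.266 ppm of Tip60, against 0.531 and 0.466 ppm on the autosomes, but the untagged library differed there as well, 0.121 against 0.222 ppm, and so did all rows (0.0813 ppm untagged on the X chromosome and 0.156 ppm on autosomes). Relative to untagged, Tip60 at X-linked and autosomal RP rows was 2.20 and 2.10 times as high.

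Other gene groups place these values. Genes of ribosome biogenesis (44 genes, among them nucleolin, nucleophosmin and subunits of RNA polymerase I) had a mean p400 of 0.429 ppm over their 54 rows, initiation and elongation factors 0.376 ppm over 77 rows, mitochondrial RP genes 0.381 ppm over 77 rows, and proteasome subunits 0.348 ppm over 37 rows, all below the 0.516 ppm of RP rows. Upon Hdac6 KD the pooled p400 changes of these groups were −50.9%, −48.9%, −48.6% and −42.5%, with 46.3%, 33.8%, 32.5% and 24.3% of rows called lower. Their 95% counting intervals (at the lowest −54.4%) did not reach that of RP rows. These groups started from less p400. The tenth of rows with the most p400 (mean 0.529 ppm) had a change close to that of RP rows, as given above. Whether the fall follows the starting signal was not tested. Tip60 changes of these gene groups were −29.5%, −28.2%, −13.0% and −3.82% before the step for GC content and −13.6%, −7.28%, 3.66% and 14.7% after it. Tip60 relative to untagged was 1.72, 1.83, 1.37 and 1.09 times in these groups and 2.10 times at RP rows. Nodal, Nefl, Gata4, Dkk1 and Zfp37, a comparison list taken from the study's primer targets, had 7 rows with a mean p400 of 0.331 ppm, a change of −41.1% upon Hdac6 KD, and Tip60 of 0.792 times the untagged signal.

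**Figure D4:**
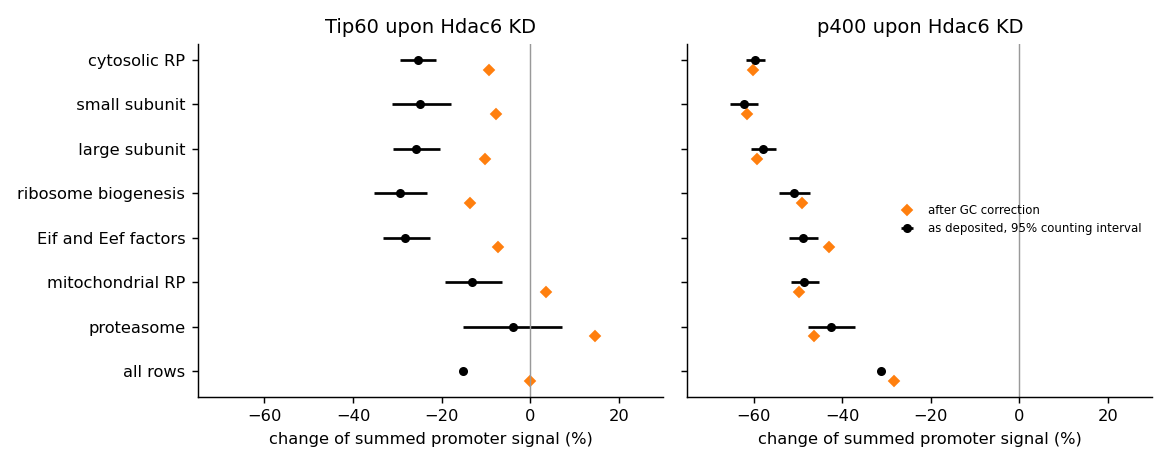
Change of the summed promoter signal upon Hdac6 KD in percent, for Tip60 (left) and p400 (right), in RP rows, their small and large subunit parts, other gene groups and all rows; circles with bars are the values as deposited with 95% counting intervals and diamonds those after the correction for GC content. RP rows have a lower p400 change, −59.6%, than the other gene groups, before and after correction, whereas Tip60 at RP rows goes from −25.4% to −9.28%. The other gene groups start from less p400 than RP rows. Flank signal is not subtracted, so the percentages do not rank the groups by loss above background.

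Within the ribosome the 2 subunits changed by similar amounts. p400 changed by −62.3% (−65.4% to −59.0%) at the 37 small-subunit rows, of which 28 were called lower. It changed by −57.8% (−60.5% to −55.0%) at the 61 large-subunit rows, of which 42 were called, beside 11.9% of all rows. The intervals overlap, and a difference between the subunits was not tested. Tip60 changed by −24.8% and −25.8%. The stalk genes had a p400 change of −59.5% and a Tip60 change of −22.6%. Genes whose products are ribosomal or ribosome-bound but whose symbols fall outside the naming rule gave values of the same order. Fau, a fusion of a ubiquitin-like and a ribosomal protein, had 0.408 ppm of p400 after GFP KD and 0.236 ppm after Hdac6 KD, a change that was not called. Gnb2l1 (Rack1), a scaffold protein on the 40S subunit, had 0.770 and 0.295 ppm, a change of −61.7% that was called (exact test adjusted p = 0.000638).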

How the data were processed

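The signal deposited by the authors is ChIP-seq coverage: per the paper and labels, base calls came from CASAVA 1.8.2, and single reads were collapsed by sequence with occurrences kept, mapped to mm9 with bowtie (version not given in the sources used here) allowing 1 mismatch, placed at 1 random match where several existed, extended, freed of simple repeats, summed from −2000 to 2000 bp around each TSS, normalized and binned every 20 bp. From these values, reads were recovered as multiples of the smallest step (100% of values were whole within 0.01 read) divided by the span of an isolated read; a shorter true span would raise the read counts and narrow the intervals. p400 rows were joined to Flag rows by RefSeq identifier and order. Pooled ratios carry exact binomial 95% intervals. Rows were tested 2-sided by the exact conditional binomial test given the normalizing reads, with Benjamini-Hochberg adjustment over all rows, in Python 3.11.15 with numpy 2.4.6, pandas 2.3.3 and scipy 1.17.1, and figures used matplotlib 3.10.9. The row test was tested on simulated data. Positions, GC content, words and sequences were read from mm9 with the GENCODE vM1 annotation. GC correction used flank windows without another TSS within 1000 bp, in bins of 2.5 points with at least 100 windows.

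The members, gene lists, tests and alternatives were chosen with earlier results of these data known. Genes are named where the paper shows ChIP data for them, as paralogs with their parents, or as the 5 highest and 3 lowest by p400, the 3 highest by Tip60 and by Hdac6 over untagged, the 4 largest falls and rises (or smallest falls) of Tip60 and p400 upon Hdac6 KD and the 2 of Hdac6 upon Tip60 KD, with at least 20 reads; row positions off the start, the X chromosome and Rpl29 were singled out after their values were seen. Some genes that this rule names are not reported here. Samples were grouped by title, 1 in each group. Alternatives were windows of −250 to 250 and −1000 to 1000 bp, flank or untagged subtraction, equal totals, 1 row for each gene, leaving out the 1% of rows highest in untagged ESCs, GC correction, and for counts of calls an adjusted p of 0.01, at least 10 reads, and folds of 1.5 and 2. Pooling only rows at an annotated start, or only rows without a recurring 50-base word, was added after seeing the data.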

Additional observations from a re-analysis of the deposited data

How the results depend on the processing

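No paired analysis was possible because each condition has 1 sample. Of 96 recomputed values, 55 stayed within the counting interval of the value reported (for counts, within 1.5 times), 40 moved and 1 changed sign; the cause was not tested unless the alternative's construction gives it. Tip60 over untagged at RP rows was 2.40 from −250 to 250 bp, 1.74 from −1000 to 1000 bp and 8.59 with flank signal subtracted, and Hdac6 over untagged 2.28, 1.54 and 6.43, and 1.39 with equal totals. The Tip60 change upon Hdac6 KD was −31.7% from −250 to 250 bp, −36.0% with flank and −48.4% with untagged signal subtracted, −17.4% with equal totals and −9.28% with GC correction. Downstream it was −40.9%, −50.3%, −23.6% and −7.90% under the last 4 of these. Upstream it was −39.6% with untagged signal subtracted, −1.27% with equal totals and, with its sign changed, 2.39% with GC correction. The p400 change was −63.9% and −53.1% in the narrower and wider windows, −81.7% with flank signal subtracted, −51.1% with equal totals and, in an alternative chosen after seeing the data, −56.1% over rows without a recurring 50-base word. p400 at RP rows over all rows was 2.30 and 1.73 in those windows and 3.20 with flank signal subtracted. The changes with flank or untagged signal subtracted are given for RP rows only, so they do not compare RP rows with other rows.

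RP rows called lower for Tip60 upon Hdac6 KD numbered 0 at an adjusted p of 0.01 and 0 in the narrower window, and 38 and 17 by folds of 1.5 and 2 alone. For p400 they numbered 42 in the narrower window, which holds fewer reads, against 70. For Hdac6 upon Tip60 KD 15 and 2 rows passed the folds of 1.5 and 2. Rows called above untagged were 14 at 0.01, 10 in the narrower window, and 70 and 51 by folds for Tip60, and 11 at 0.01 and 67 and 47 by folds for Hdac6. The shares of all rows that passed a fold of 1.5 are given above. No such share was computed for an adjusted p of 0.01, a fold of 2 or the narrower window. Those counts therefore do not compare RP rows with all rows. Every result compares single libraries: differences between cultures or ChIPs, which these files cannot measure, are not in any interval. A library's efficiency and the knockdown cannot be told apart for p400 and Tip60 upon Hdac6 KD, since the mean of all rows was lower as well. GC correction left the p400 change at −60.1%. Depth, with medians of 13 to 43 reads for each RP row, limits the calls at single genes, and neighbouring rows share reads.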

Other observations

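RP genes with and without a pyrimidine run of at least 8 bases at the TSS had similar p400. The median after GFP KD was 0.513 ppm in the 50 genes with the run and 0.494 ppm in the 29 without, and the median change upon Hdac6 KD was −61.8% and −59.7%. The median Tip60 change was −29.9% with the run and −13.6% without it, with median Tip60 after GFP KD of 0.458 and 0.438 ppm. Genes with the ETS core CCGGAAG (31) and without it (48) had median p400 of 0.495 and 0.507 ppm and median changes of −59.2% and −62.2%. The 10 genes with TATAAA and the 69 without had 0.456 and 0.513 ppm and changes of −67.6% and −60.4%. These are descriptions of 1 library for each condition and were not tested.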
